A study of Rattus norvegicus with 8 samples.

Results

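The genes of the angiotensin and endothelin systems examined here were Agt, Ace, Agtr1a, Agtr1b, Agtr2, Edn1, Ednra, Ednrb and Ece1, 9 of the 37209 genes in the count table, taken by symbol for their known roles. Carotid arteries of male Sprague-Dawley rats, weighing 400 g on average, were compared 2 weeks after surgery. The 4 injured arteries were left carotids whose intima had been damaged with a balloon, and the 4 control arteries were undamaged right carotids, which served as the animals' own controls. RNA of whole arteries was sequenced, so that a change in a gene can come from fewer or more cells of a type or from less or more RNA per cell, and these cannot be told apart.

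Angiotensinogen, encoded by Agt, is cut in steps, the last by angiotensin-converting enzyme (Ace), to give angiotensin II, a peptide that contracts vessels and acts on smooth muscle through type 1 receptors. Rats and mice carry a pair of genes for this receptor, Agtr1a and Agtr1b, while Agtr2 encodes a second type whose effects often oppose it. The precursor of endothelin-1, made mostly by endothelium from Edn1, is matured by Ece1. Endothelin-1 contracts smooth muscle through the receptor encoded by Ednra, whereas Ednrb on endothelium promotes nitric oxide release and clears the peptide. Both receptor families couple to Gq, phospholipase C and calcium release.

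The total count was 13470754 to 15276952 per control artery and 11459632 to 16658089 per injured artery, so that 3 counts, the least taken as a level, equalled 0.18 to 0.262 counts per 1000000 of the library total. This floor covers counting error only. Levels are given below as CPM, in the same unit but with TMM-adjusted library sizes. Control artery 4 stood apart. Its log2 CPM correlated at 0.83 to 0.852 across genes with the other controls, which correlated with each other at 0.976 to 0.978. Its summed level of 10 sympathetic neuron markers was 10622 CPM against at most 6.93 CPM in the other controls, while injured arteries 3 and 1 had 2166 and 156 CPM. Fits of the 9 genes are therefore also given without control artery 4 where that changes whether a gene passes a threshold. The summed receptor pairs were not refitted without it. Contractile smooth muscle markers were abundant in every artery, at 18828 to 54584 summed CPM in controls and 11506 to 18102 after injury. One protocol text speaks of prefrontal cortex, whereas elsewhere the labels give carotid artery. Of the 8 astrocyte and cortical neuron markers, Slc17a7, Slc1a2, Aqp4, Gad2 and Neurod6 had at most 8 counts in any artery, Gad1 at most 27 and Aldh1l1 at most 71, whereas Gfap had 9 to 385 counts in controls and 121 to 3497 after injury.

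Of the 9 genes, 8 had enough counts for a test in edgeR's quasi-likelihood fit over all genes. A gene was called differentially expressed at an adjusted p (Benjamini-Hochberg) under 0.05 together with a fold change above 2. Among the 8, 2 were called, Agtr1b lower and Ednrb higher after injury. Over all 14359 genes tested, 10.9% were called, 8.31% higher and 2.57% lower. Adjusted p alone was under 0.05 for 3 of the 8 genes and for 17.2% of all genes. CPM did not overlap between the groups for Agtr1a, Agtr1b and Ednrb, and did not overlap for 23.7% of all genes. The median log2 fold change of the 8 genes was -0.35, and that of all tested genes was -0.06.

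**Figure D1:**
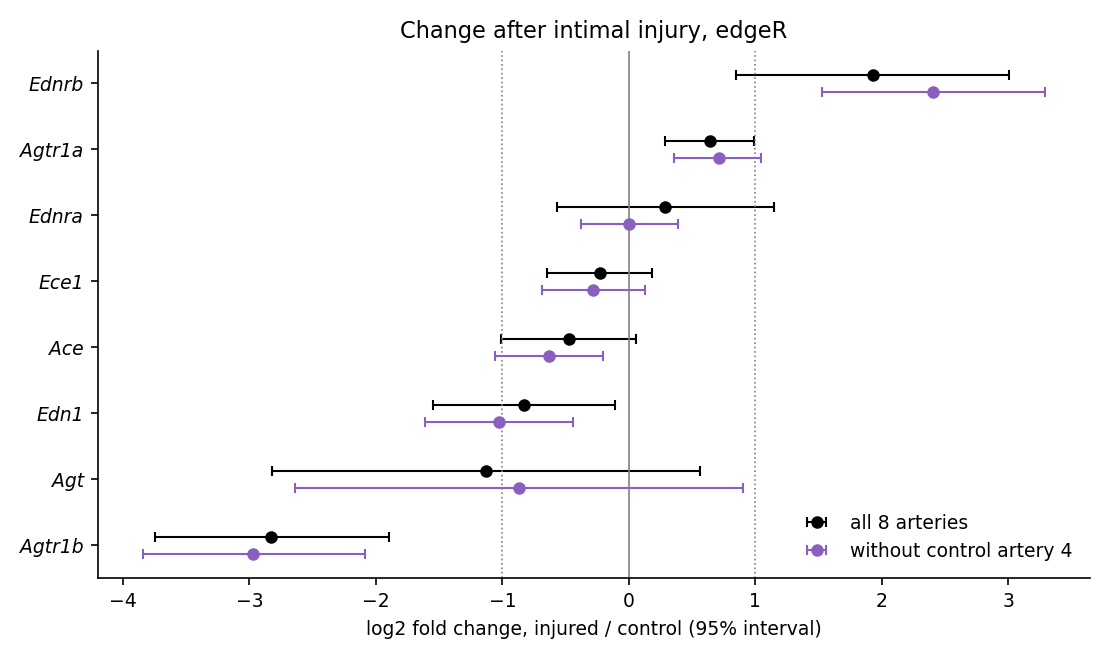
The log2 fold change of injured over control arteries is drawn with its 95% interval from edgeR for 8 genes, with all 8 arteries (black) and without control artery 4 (purple), and dotted lines mark a 2-fold change. Agtr1b lies lowest at -2.83 and Ednrb highest at 1.93.

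The pair of type 1 angiotensin receptor genes is taken first. To show that these are separate genes with their own start regions, 30 bases from 57 to 28 bases before the RefSeq transcription start (GRCr8) are given 5′ to 3′ for the receptors, with the letters TATAAA in capitals wherever they occur. The Agtr1a stretch is at chr17:34435460-34435489 and the Agtr1b stretch at chr2:104849290-104849319, both on the minus strand. Ednra is at chr19:47137867-47137896 on the plus strand and Ednrb at chr15:87086793-87086822 on the minus strand.
Agtr1a: cgccccctaggcTATAAAtatggaagtgcc
Agtr1b: gctgaataaattggagctgtctccactagg
Ednra: aggcgtgttcctccagagtttgcttttcct
Ednrb: attgatgctgggaagggacccgaatgaata
Searched on both strands of the window from 250 bases before to 50 after the start, TATAAA occurred in 14.2% of all 33469 RefSeq windows and, among the 8 genes here with a window, in those of Agtr1a, Edn1 and Ace. The letters TGANTCA occurred in 7.33% of all windows and in none of these 8. A match is a description of the letters and no evidence of binding.

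Agtr1b, one of the pair of type 1 receptor genes, had 17.3, 17.7, 13.4 and 10.1 CPM in control arteries 1 to 4 and 2.45, 2.54, 2.47 and 0.736 CPM in injured arteries 1 to 4. Every injured artery lay below every control, and injured artery 4 was lowest, with only 9 counts. Agtr1b fell, with means of 14.6 ± 3.56 CPM in controls and 2.05 ± 0.876 CPM after injury (SD, n = 4 each). The log2 fold change was -2.83 (SE 0.40, 95% interval -3.75 to -1.90) (edgeR, adjusted p = 0.00283), a 7.09-fold lower level. Agtr1b ranked 29th from the lowest of the 14359 log2 fold changes, and its call held when any 1 of the 8 arteries was left out.

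Agtr1a, its paralog and the main type 1 receptor gene of rat vessels, had 14.5, 17, 16.9 and 19.3 CPM in the controls and 21.1, 26.5, 28.1 and 29.9 CPM after injury. All injured arteries were above all controls, although the gap between injured artery 1 and control artery 4 was small. The mean was 16.9 ± 1.92 CPM (SD, n = 4) in controls and 26.4 ± 3.81 CPM (SD, n = 4) after injury. The log2 fold change of 0.64 (SE 0.15, 95% interval 0.29 to 0.99) passed the false discovery threshold (edgeR, adjusted p = 0.0236), but the 1.56-fold difference did not reach the fold criterion. When 1 artery was left out, the adjusted p from edgeR was under 0.05 in 2 of 8 fits, those without control artery 4 or injured artery 1, and rose to at most 0.0816 in the other 6.

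The share of Agtr1b in the reads of the pair was 54.3%, 51.1%, 44.3% and 34.5% in control arteries 1 to 4 and 10.4%, 8.75%, 8.07% and 2.40% in the injured arteries. The 95% Wilson intervals, which cover counting error only, were 30.1% to 39.2% in the control with the lowest share and 7.76% to 13.8% in the injured artery with the highest. No transcript lengths were at hand, so the shares do not order the levels of the paralogs, but lengths do not alter the difference between groups. The log2 ratio of Agtr1a to Agtr1b was 0.24 ± 0.52 (SD, n = 4) in controls and 3.80 ± 0.99 (SD, n = 4) after injury. The difference of 3.57 had an exact two-sided permutation p of 0.0286, the smallest that 4 arteries against 4 allow, and 0.0571 after adjustment over the 2 ratios tested. It did not pass 0.05 after that adjustment, though the ratio was higher in 4 of 4 injured arteries than in any control.

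With the reads of both genes summed, an alternative chosen after seeing the data, the level was 31.6 ± 2.31 CPM (SD, n = 4) in controls and 28.5 ± 3.36 CPM (SD, n = 4) after injury. The log2 fold change of the sum was -0.15 (SE 0.13, 95% interval -0.44 to 0.14, edgeR, adjusted p = 0.461), and the interval reaches neither a 2-fold fall nor a 2-fold rise. How reads shared between these near-identical paralogs were counted is not given in the sources used here, so the split between them is uncertain while their sum is less so. Agtr2, the type 2 receptor gene, was listed at 0 in all 8 arteries, but so were 595 of 609 protein-coding genes that RefSeq places on the X chromosome (97.7%), against 9.63% of autosomal ones. Agtr2 is X-linked, and its zeros therefore cannot be read as levels.

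**Figure D2:**
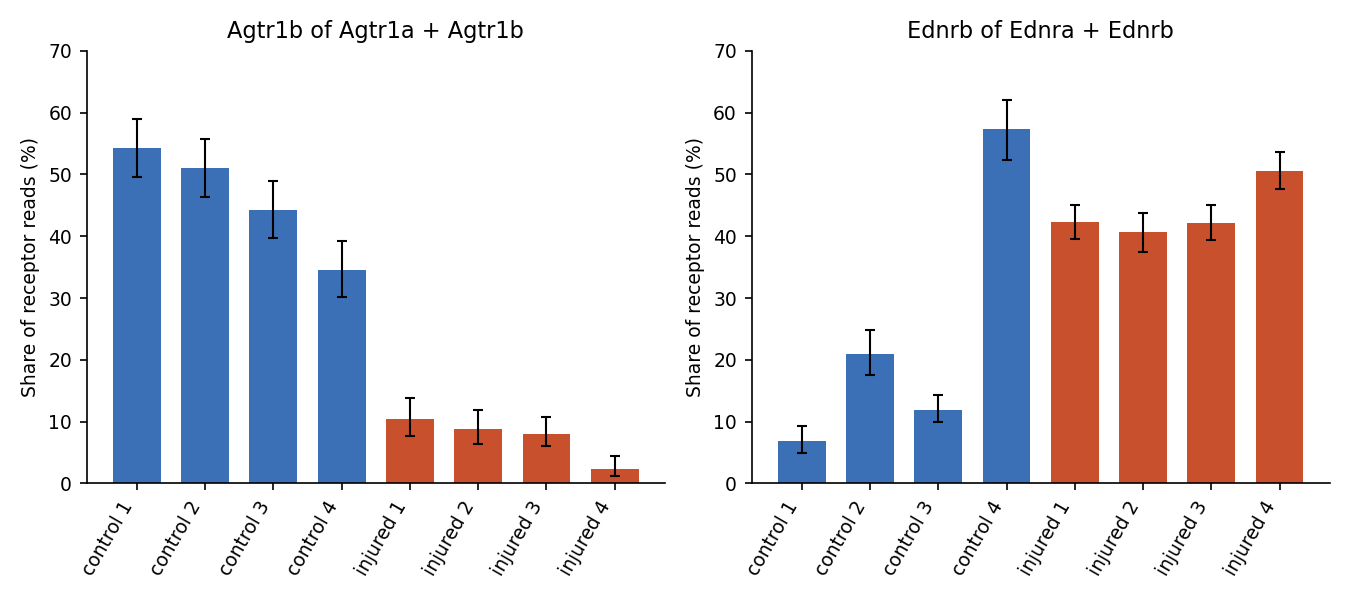
Bars give the percentage of the reads of a receptor pair that were counted on Agtr1b (left) and Ednrb (right) in each control (blue) and injured (orange) artery, with 95% Wilson intervals for counting error. The Agtr1b share is 34.5% or more in every control and 10.4% or less in every injured artery, while the Ednrb share of control artery 4 (57.3%) exceeds all injured arteries.

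Ednrb, an endothelin receptor gene known in endothelium, had 2.67, 8.37, 7 and 15.6 CPM in the controls and 30.3, 27.1, 27.3 and 43.7 CPM after injury. All injured arteries exceeded all controls, and control artery 4 was the highest of its group. Ednrb rose, with means of 8.40 ± 5.36 in controls and 32.1 ± 7.88 CPM after injury (SD, n = 4 each). The log2 fold change was 1.93 (SE 0.47, 95% interval 0.85 to 3.01), a 3.81-fold higher level (edgeR, adjusted p = 0.0265). Without control artery 4 it was 2.41 (edgeR, adjusted p = 0.00299). The call was lost when control artery 2 or 3 or injured artery 1, 2 or 4 was left out, where edgeR gave adjusted p values of 0.0755, 0.0779, 0.0578, 0.0607 and 0.0828 and the same direction each time. Ednrb is also known in Schwann cells, whose summed markers were 397, 302, 1109 and 1082 CPM in the controls and 871, 460, 1652 and 1096 CPM after injury. None of the 7 Schwann cell markers tested was called, but 5 had a positive log2 fold change and the median was 1.31. Sox10, a transcription factor of these cells, had 3.17, 0.41, 15.5 and 79.4 CPM in the controls and 59.9, 28.7, 145 and 87.2 CPM after injury. Like Ednrb, Sox10 was highest among the controls in control artery 4. The part of these cells in the Ednrb result was not tested.

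Ednra, the contractile endothelin receptor of smooth muscle, had 36.4, 31.6, 51.8 and 11.6 CPM in the controls and 41.3, 39.5, 37.3 and 42.7 CPM after injury. The injured arteries were close together, within the range of the controls, of which control artery 4 was far below the rest. Its log2 fold change was 0.29 (SE 0.37, 95% interval -0.57 to 1.15, edgeR, adjusted p = 0.639). Without control artery 4 it was 0.00, with an interval from -0.38 to 0.39 (edgeR, adjusted p = 0.986), which excludes a 2-fold change in either direction.

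The share of Ednrb in the reads of both endothelin receptors was 6.81%, 20.9%, 11.9% and 57.3% in the controls and 42.3%, 40.6%, 42.2% and 50.6% after injury. Control artery 4 alone among the controls lay in or above the injured range. The log2 ratio of Ednra to Ednrb was 2.03 ± 1.80 (SD, n = 4) in controls and 0.35 ± 0.26 (SD, n = 4) after injury, and the difference of -1.68 had an exact two-sided permutation p of 0.143 (0.143 adjusted). Without control artery 4 the difference was -2.50. The sum of both receptors, again an alternative added after seeing the data, was 41.2 ± 13.1 CPM (SD, n = 4) in controls and 72.3 ± 9.85 CPM (SD, n = 4) in injured arteries. The summed log2 fold change of 0.81 (95% interval 0.29 to 1.33) came with edgeR's adjusted p = 0.0429, short of the fold criterion.

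**Figure D3:**
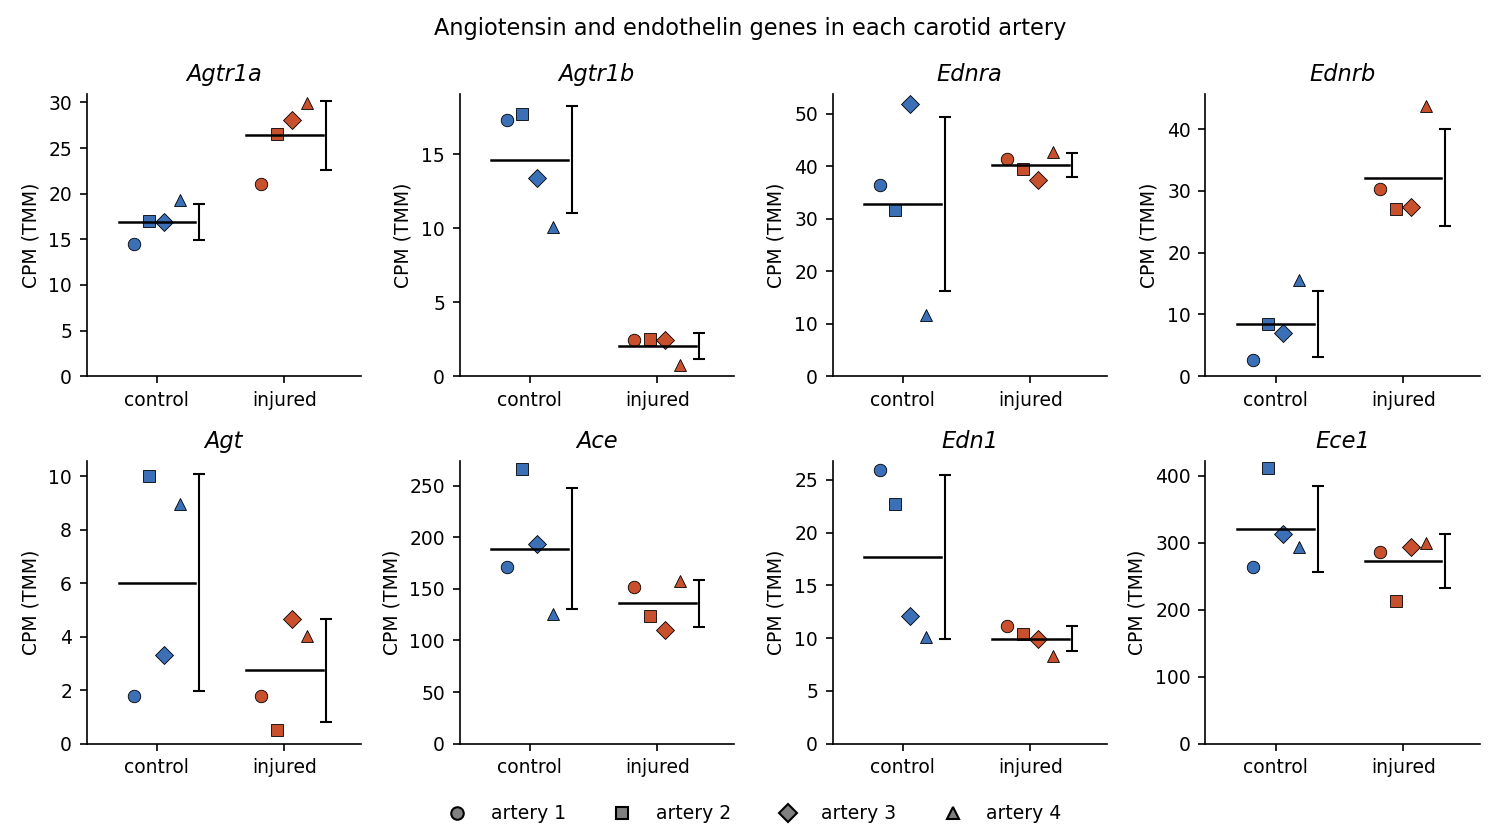
Each panel shows the TMM-scaled CPM of 1 gene in the 4 control (blue) and 4 injured (orange) arteries, with the mean as a line, the SD as an error bar and the artery number as the symbol, and vertical scales differ between panels. Groups are separate for Agtr1a, Agtr1b and Ednrb and overlap in the other panels.

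Of the ligand genes, Edn1, the precursor of endothelin-1, had 25.9, 22.7, 12.1 and 10.1 CPM in the controls and 11.1, 10.4, 9.94 and 8.35 CPM after injury. Control arteries 1 and 2 were high, control artery 4 lay among the injured arteries, and the injured arteries differed little. The mean was 17.7 ± 7.77 CPM (SD, n = 4) in controls and 9.95 ± 1.17 CPM (SD, n = 4) after injury. Edn1 was not called at a log2 fold change of -0.83 (SE 0.31, 95% interval -1.55 to -0.11, edgeR, adjusted p = 0.113). Without control artery 4 it was -1.03 (edgeR, adjusted p = 0.0191), and Edn1 was then called. In that fit 3 of the 8 genes were called, and 16.2% of the genes tested.

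Agt, the angiotensin precursor, had 1.80, 10, 3.33 and 8.96 CPM in the controls and 1.79, 0.508, 4.66 and 4.01 CPM after injury. The groups overlapped, and the spread within the controls exceeded the difference. On the log2 scale the fold change was -1.13 (SE 0.74, 95% interval -2.82 to 0.56, edgeR, adjusted p = 0.343). Agt is known in fat cells, and control arteries 2 and 4, which had the most Agt, also had the highest summed adipocyte markers. These sums were 107, 1078, 356 and 1032 CPM in the controls and 278, 163, 415 and 346 CPM after injury, and their part in the Agt values was not tested.

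Ace, which makes angiotensin II, had 171, 266, 193 and 126 CPM in the controls and 152, 124, 110 and 158 CPM after injury. Control artery 4 lay among the injured arteries and the other controls lay above them all. Ace was not called (log2 fold change -0.47, SE 0.23, 95% interval -1.01 to 0.06, edgeR, adjusted p = 0.214). Without control artery 4 it was -0.63 (edgeR, adjusted p = 0.0361), short of the fold criterion.

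Ece1, the enzyme that matures endothelin-1, had 264, 412, 313 and 293 CPM in the controls and 286, 213, 293 and 299 CPM after injury. Control artery 2 was high and injured artery 2 was low, with the other arteries between. Ece1 was not called either (log2 fold change -0.23, SE 0.18, 95% interval -0.65 to 0.18, edgeR, adjusted p = 0.423). The interval excludes a 2-fold change in either direction.

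Each tested gene except Agt was also set against the markers of a cell type known for it. The value was the gene's log2 CPM minus the mean log2 CPM of 10 markers. The contractile smooth muscle mean was 10.51 in controls and 9.31 after injury. Relative to it, Agtr1a was 1.83 and Ednra 1.67 higher after injury, and Agtr1b was lower by a difference of -1.66. Values did not overlap between groups for these 3 genes, although Agtr1a came within a hundredth of overlapping between control artery 4 (-5.20) and injured artery 1 (-5.19). Relative to the same markers, 40.5% of all genes tested did not overlap, nearly all of them higher after injury (5759 against 57 lower), and Agtr1b was on the rarer side.

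The mean of the endothelial markers was 6.15 in controls and 6.53 after injury. Relative to it, Ednrb was 1.76 higher after injury, and the differences of Ace, Edn1 and Ece1 were -0.81, -1.10 and -0.60. None of the 4 overlapped between the groups, and 19.6% of all genes tested likewise did not overlap. Ace was tightest, at 1.36 ± 0.15 (SD, n = 4) in controls and 0.54 ± 0.06 (SD, n = 4) after injury. All 7 relative differences had an exact two-sided permutation p of 0.0286, adjusted 0.0286 over the 7. This is the smallest that 4 arteries against 4 allow when none are paired. With the median of the marker list in place of the mean, Agtr1a had a difference of 1.80 and an exact permutation p of 0.0571, and the other 6 kept 0.0286. Endothelial markers did not move as 1 group, since 3 of the 10 were called higher and 1 lower. The one lower was Vwf, encoding von Willebrand factor, at a log2 fold change of -1.65 (edgeR, adjusted p = 0.0206).

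**Figure D4:**
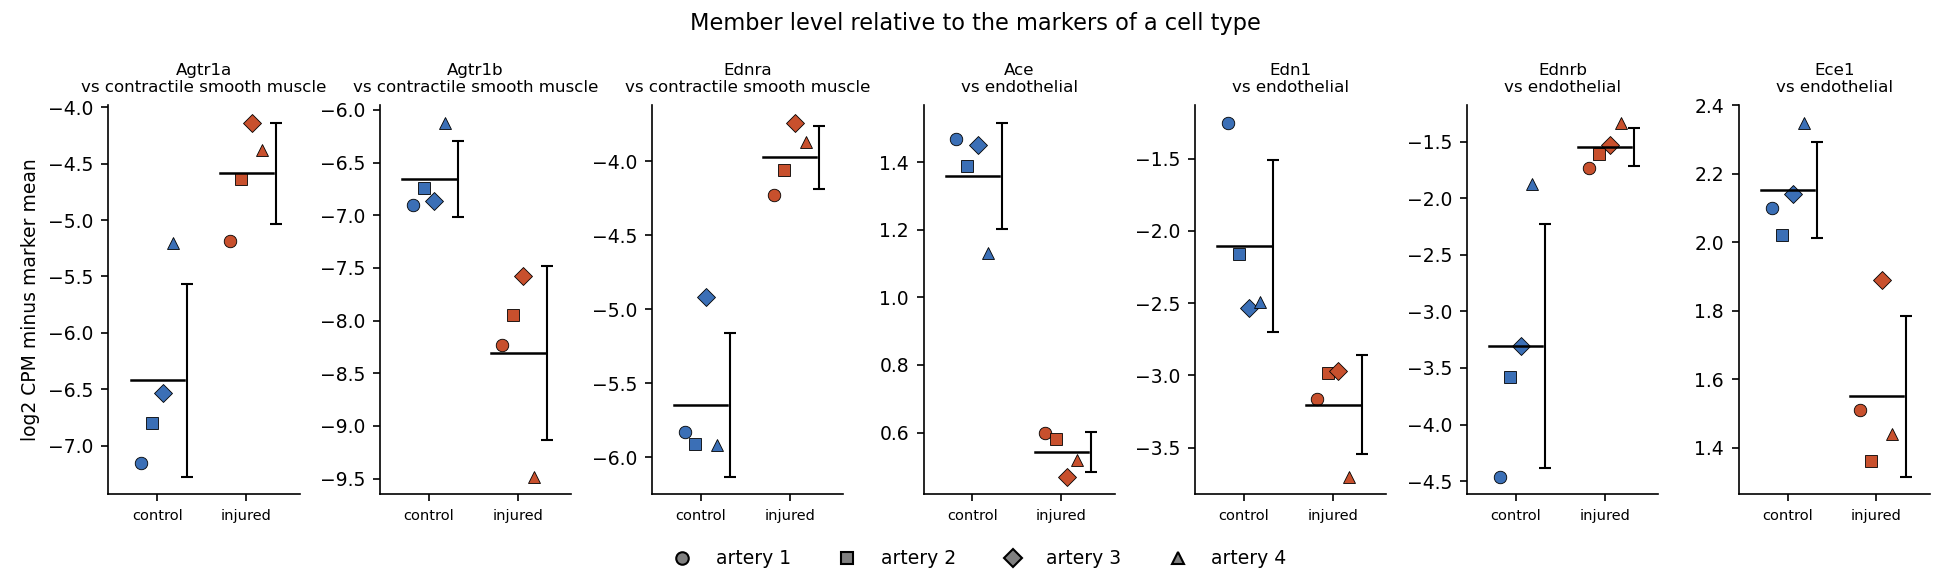
The vertical axis is the log2 CPM of a gene minus the mean log2 CPM of 10 contractile smooth muscle markers (first 3 panels) or 10 endothelial markers (last 4), with control arteries in blue, injured arteries in orange, the mean as a line and the SD as an error bar. Ace lies at 1.13 or above in every control and at 0.60 or below in every injured artery.

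The other genes of these pathways were taken from lists chosen by known role. Their counts of called genes stand beside 10.9% called over all genes tested. Of 12 angiotensin processing genes tested from a list of 18, 1 was called. This was Prcp, a carboxypeptidase that cleaves angiotensin II, which rose from 19.7 ± 3.50 to 50.6 ± 9.44 CPM (SD, n = 4 each), or by 1.36 on the log2 scale (SE 0.18, edgeR, adjusted p = 0.00219). The list's median log2 fold change was 0.54, and 10 of the 12 were above 0, against 45.2% of all genes. Anpep, an aminopeptidase that trims angiotensin III, had 86.3 ± 30.4 CPM in controls and 171 ± 28.2 CPM after injury (SD, n = 4 each), and its log2 fold change of 0.98 (edgeR, adjusted p = 0.0453) was just under the fold criterion. The adjusted p was under 0.05 in 2 of 8 edgeR fits with 1 artery left out, those without control artery 4 or injured artery 3, and reached 0.125 in the others. Arap1 was not called at a log2 fold change of 0.47.

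None of 7 endothelin ligand and processing genes tested from 9 was called, and their median was 0.26. Furin, a convertase that cleaves the endothelin precursor, had a log2 fold change of 0.45 (edgeR, adjusted p = 0.0243), below the fold criterion, and its adjusted p was under 0.05 in 3 of 8 edgeR fits with 1 artery left out (without control artery 4 or injured artery 1 or 3) and reached 0.0811 in the others. Mmp2, a metalloproteinase that also cleaves the precursor, had one of 0.07. Edn3, encoding the third endothelin, had 58.3 CPM in control artery 4 and at most 0.072 CPM in the other controls, and 0.245 to 3.87 CPM after injury.

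Of 33 genes for receptor coupling and desensitization, 3 were called higher and 2 lower, with a median of -0.14. Over all genes tested, 8.31% were called higher and 2.57% lower. Those that rose were Plcb2, a phospholipase C of blood cells, by 2.95 on the log2 scale (adjusted p = 0.00117), the inositol trisphosphate receptor Itpr3 by 1.76 (0.0278), and Arrb2, an arrestin that desensitizes receptors, by 1.52 (0.00115), all in edgeR's test. Plcb4, another phospholipase C, fell by 1.47 on the log2 scale (edgeR, adjusted p = 0.0244) and Itpr1, the inositol trisphosphate receptor abundant in smooth muscle, fell by 1.08 (0.0265). Control artery 4 had 406 CPM of Plcb4 against 159 to 195 CPM in the other controls, and 240 CPM of Itpr1 against 510 to 551 CPM. Left-out arteries mattered for 3 of these genes. Itpr1 kept its call only without control artery 4, Itpr3 lost it without control artery 1, 2 or 3 or injured artery 1 or 4, and Plcb4 lost it without injured artery 1, 2 or 4. The abundant genes Gnai2 and Rhoa had log2 fold changes of -0.17 and -0.16 and were not called. Without control artery 4, Gnai2 was at -0.32 (edgeR, adjusted p = 0.0305), short of the fold criterion.

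Response genes are those that angiotensin II or endothelin-1 are known to raise in smooth muscle, and other signals raise them too. Of 20 tested, 7 were called, all higher, while 8.31% of all genes tested were called higher. Thbs1, encoding thrombospondin-1, had the largest log2 fold change of 2.14, followed by the chemokine gene Ccl2 (1.85), the oxidase subunit Cyba (1.67), Spp1, encoding osteopontin (1.55), Tgfb1 (1.39) and the oxidase Nox4 (1.23). In the same order edgeR gave adjusted p values of 0.0400, 0.0161, 0.00697, 0.0415, 0.00111 and 0.00910. Spp1 lost its call without control artery 2 or 3 or injured artery 1, 2 or 4, Thbs1 kept it only without control artery 2 or 4, and Ccl2 lost it without injured artery 2 or 4. The collagen genes Col3a1 and Col1a1 had log2 fold changes of -0.16 and -0.22 and were not called, and the median of all 20 was 0.08. Without control artery 4 these collagen genes were at -0.43 and -0.48 (edgeR, adjusted p = 0.0965 and 0.0802). All 10 macrophage markers rose, with a summed level of 188 to 268 CPM in controls and 1746 to 2658 CPM after injury. Since several of these genes are known in macrophages, their values are given beside this, and its part was not tested.

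**Figure D5:**
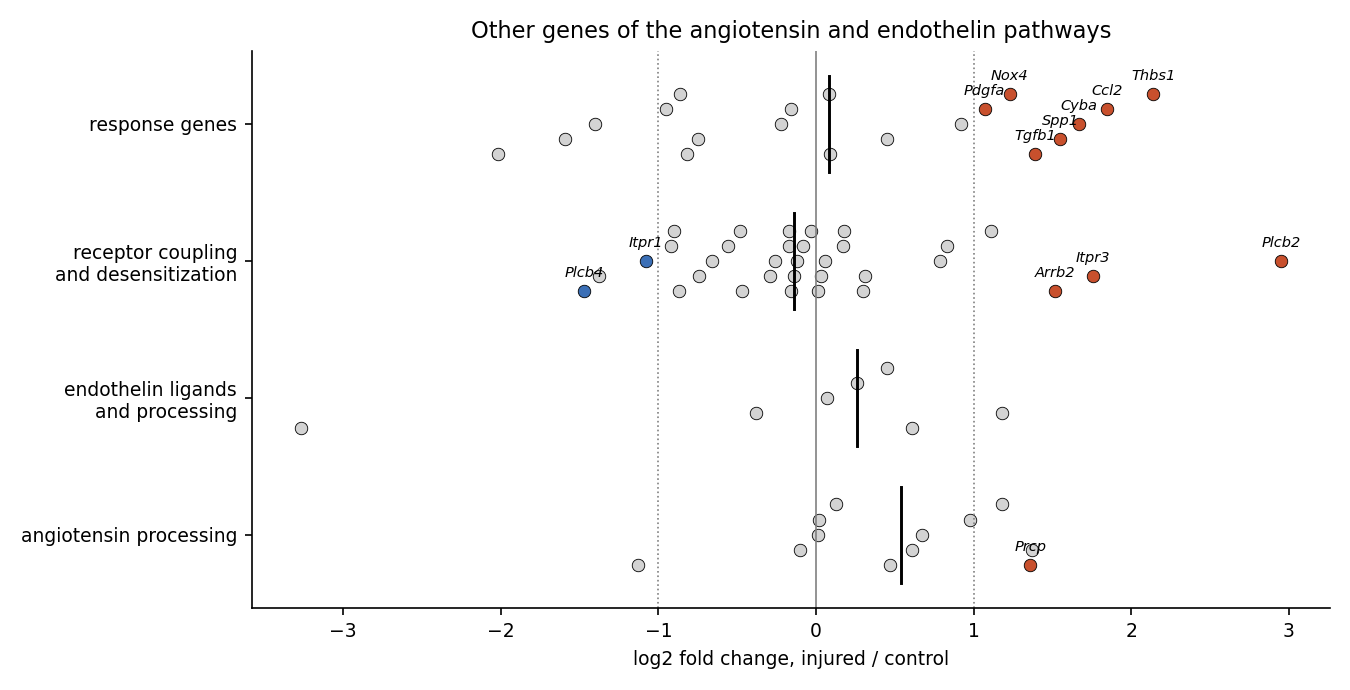
Each point is the log2 fold change of 1 tested gene of a pathway list, with called genes named and coloured (orange higher, blue lower), the others grey, a bar at the list's median and dotted lines at a 2-fold change. In the response list 7 of 20 genes are called higher, and in the coupling list 3 are higher and 2 lower.

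Among 12899 genes with an average log2 CPM above 1, those whose log2 CPM followed Agtr1b most closely over the 8 arteries were the channel gene Trpc1 (Pearson's r 0.988) and Hace1 (0.983). For Ednrb they were Ssh2 (0.980) and Upp1 (0.977). These values include the difference between groups and share library depth, and are a description over 8 arteries.

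In the remaining marker lists, the contractile smooth muscle genes had 7 of 10 called lower and none higher, with a median of -1.35. Over all genes tested, 2.57% were called lower and 8.31% higher. Acta2 and Myh11 had log2 fold changes of -1.34 and -1.72, and Myh11 overlapped between the groups. The number called lower was 9 without control artery 4, 3 without injured artery 1, 2 without control artery 1, 2 or 3 or injured artery 2 or 3, and 0 without injured artery 4. Acta2 kept its call in 1 and Myh11 in 2 of these 8 fits. Fibroblast markers had 1 called higher and 2 lower of 7, adipocyte markers 0 of 8 and mast cell markers 0 of 3. Skeletal muscle genes had 6 of 8 called higher, at a summed 84.5 to 253 CPM in controls and 283 to 1020 CPM after injury. Of the sympathetic neuron markers 5 could be tested and 0 were called, and of the astrocyte and cortical neuron list 2 could be tested and 1 was called, lower.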

How the data were processed

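RNA of whole carotid arteries was sequenced in 8 libraries. The authors deposited whole-number read counts per gene symbol with no normalization; the submitters' processing notes name HISAT2 2.0.4, while the counting tool, its use of strand and the genome build are not given in the sources used here. Groups came from the sample labels. Counts were normalized with TMM factors and filtered with filterByExpr, and injured and control arteries were compared with the quasi-likelihood test of edgeR 4.0.16 (R 4.3.3) without a block. A gene was called at an adjusted p under 0.05 and a fold above 2. Ratios (0.5 added to each count) and levels relative to markers (log2 CPM with a prior count of 2) were tested by exact permutation over 70 relabellings (scipy 1.17.1). The labels do not say which arteries share an animal, and p-values measure the spread between these samples. The fit was run on counts simulated for 14359 genes, of which 200 were changed 4-fold up or down, and 14111 genes passed the filter. It called 141 of the 200 changed genes (70.5%), all in the right direction, and 7 unchanged genes. Smaller changes, such as those near the fold threshold, were not simulated. The simulated arteries were independent and none stood apart, so shared animals and an artery like control artery 4 were not tested. The members and lists were chosen with earlier results of these data known. Named genes were all members, the called genes of each pathway list (at most 6, those with the largest change) and its 2 tested genes with the most counts, up to 3 abundant markers of each cell type, and for each called member its 2 most correlated genes. Of 179 list symbols, 5 were matched by a synonym and 1 was not matched. DESeq2 1.42.0, other scaling, other filters, a replicate block and leaving out each artery were run as alternatives. One planned ratio was not run, and some genes of the lists are not reported here. Gene placements and promoter letters came from RefSeq (GRCr8).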

Additional observations from a re-analysis of the deposited data

Results flagged for a closer look

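In a group of 4 arteries, the highest or lowest was held to stand apart where its gap to the nearest other, divided by the range of the group, exceeded Dixon's 95% critical value. This was so in 12 of 94 groups examined, and in 6 of the 12 the artery was control artery 4. Independent groups of normally distributed values would give about 1 in 20 (4.7). The groups here come from the same arteries and are not independent, so 12 against 4.7 does not measure an excess over chance. Among the members, the gap was 0.952 for Agtr1b in the injured arteries, where artery 4 had 0.736 CPM and the next had 2.45, and 0.855 for Ece1, where injured artery 2 had 213 CPM and the next 286. Relative to the smooth muscle markers, Ednra in control artery 3 was at -4.92 and the next at -5.83 (gap 0.911).

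In control artery 4 the gap was 0.854 for Plcb4 (406 CPM, next 195), 0.868 for Itpr1 (240, next 510), 0.870 for Col3a1 (9569, next 26482) and 0.834 for Col1a1 (8466, next 23918). The summed sympathetic neuron markers gave 1.00 in that artery (10622 CPM, next 6.93) and the summed astrocyte and cortical neuron markers 0.873 (32.2 CPM, next 10). In injured artery 3 the sympathetic sum gave 0.930 (2166 CPM, next 156). Rhoa gave 0.922 in injured artery 2 (565 CPM, next 515), and Thbs1 gave 0.854 in control artery 2 (105 CPM, next 32.4).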

How the results depend on the processing

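Agtr1b kept its call under every alternative that could test it (log2 fold change -2.97 to -2.56, adjusted p 1.62e-12 to 0.0126), but a filter of 10 counts in every artery removed it. Ednrb kept its direction (1.63 to 2.41). Counts of called genes were 1007 with at least 10 counts in every artery, 2468 by adjusted p alone, 2151 with DESeq2 and 1142 to 2398 when 1 artery was left out, the highest without control artery 4. Of the members, 1 was called with that filter and 1 to 3 when 1 artery was left out. Called angiotensin processing genes numbered 2 with library totals only, 2 with the filter and 2 by adjusted p alone, and 1 to 2 when 1 artery was left out. Endothelin processing genes numbered 1 by adjusted p alone and 0 to 2 when 1 artery was left out, coupling genes 2 to 9 and response genes 3 to 9, and the count of each list was highest without control artery 4, that of angiotensin processing genes being as high without injured artery 3. Scaled by library totals only, the median of all genes shifted by 0.17, 85.1% against 76.4% of calls were higher, and Gnai2 (0.01), Rhoa (0.02) and Col3a1 (0.03) reversed. Mmp2 ranged from -0.18 to 0.20 when 1 artery was left out and was negative at -0.18 and -0.01. The cause was not tested. Arteries with the same number are not said to come from the same animal, and their deviations correlated at 0.301, 0.45, -0.52 and -0.416. With the replicate block, 1187 genes were called, Agtr1b and Ednrb among them, and 2 coupling genes and 3 contractile markers. Spp1, Itpr3, Plcb4 and Itpr1 lost their call (adjusted p = 0.143, 0.0535, 0.0709 and 0.0835 in edgeR), and Anpep and Furin had 0.107 and 0.0871. The difference of Agtr1a from the median of the smooth muscle markers was 1.80, with an exact p of 0.0571. Exact tests without an artery or over pairs cannot reach 0.05 (smallest p 0.0571 and 0.125).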
